A study of Mus musculus with 8 samples.

Results

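The Rab, SNARE and synaptotagmin genes of the mouse lacrimal gland (LG) are described here. They are the 129 of 24552 genes in the table of raw counts whose symbol starts with Rab, Vamp, Stx, Snap, Stxbp, Syt or Sytl followed by a digit. Of these, 59 are Rab GTPases, 26 are SNARE genes, 17 are synaptotagmins and 27 are other rows with a matching symbol. Most tear fluid comes from the LG, and the exorbital gland was used here. RNA came from 8 LG libraries of female C57BL/6J mice, 4 from mice fed ad libitum (AL) and 4 from mice on 40% calorie restriction (CR) for 4 months. Diets began at 6 to 7 months of age, and LGs were taken at 10 to 11 months. No genotype or drug was varied. The study used more than 1 cohort of mice, and which cohort gave each library is not stated in the labels. Nothing in the labels says more of the replicates than that they are separate samples, so the p-values measure the spread between these libraries.

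Acinar cells of the LG store tear proteins in granules and release them by fusing the granules with the apical membrane. Rab GTPases switch between an active, membrane-bound form and an inactive form kept in the cytosol, and each Rab marks a certain compartment and recruits effectors to it. SNARE proteins on the vesicle (Vamp) and on the target membrane (Stx and Snap) zip together to drive fusion, Stxbp proteins of the Munc18 group guide the syntaxins, and several synaptotagmins (Syt) act as calcium sensors of release.

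Levels are given as CPM, the count scaled to a common library size with RLE factors. QuantSeq reads come from near the 3' end of a transcript, and libraries held between 12051881 and 22156511 counts. Replicates 4, 2, 1 and 3 were in this order of depth in both diets. A floor of 3 counts is between 0.152 and 0.231 CPM and covers counting error only. Transcripts listed as markers of another gland, the parotid, moved with diet, and whether they came from that gland was not tested. Of 8 parotid gland markers, all had a higher mean in CR and 3 were called higher, and none was at 0 in every library. Their summed level was 13808 to 43335 CPM in AL and 56470 to 305085 CPM in CR, with CR replicate 4 the lowest of its diet. Car6 alone measured 11790 to 28507 CPM in AL and 36549 to 82816 CPM in CR. The paper places Prb1, also on this list, with the secretory genes of the LG, and found it higher in CR by qRT-PCR in further LG samples. The lacrimal epithelial markers summed to 203972 to 242046 CPM in AL and 71233 to 195711 CPM in CR, most of it Obp1a and Obp1b. Of these 9 markers, 4 had a higher mean in CR and 5 a lower one, and only Pigr was called, lower. Macrophage markers summed to 70.7 to 215.3 CPM in AL and 43.8 to 86.4 CPM in CR, and all 6 had a lower mean in CR. Submandibular and sublingual markers summed to 79.96 to 4956 CPM in AL and 5031 to 58934 CPM in CR, with Smgc at 0 in every library. White adipose markers summed to 7.29 to 17.6 CPM and 22.9 to 90.4 CPM, and B cell markers to 1.73 to 10.6 CPM and 0.424 to 1.11 CPM, in AL and CR. Apart from a fit with a parotid score as a covariate, the part of these transcripts in the results was not tested. In RNA from whole glands, fewer cells of a type and less RNA per cell cannot be told apart.

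Of the trafficking genes tested, 4 were called between the diets. Of the 129 genes, 91 passed the filter on low counts, 38 did not, and 11 of these had no count in any library. Calls came from quasi-likelihood tests in edgeR, adjusted by Benjamini and Hochberg's method over 11211 genes, and needed both an adjusted p below 0.05 and a change of 1.5-fold or more. Rab4a and Rab3a were called higher in CR, which is 2 of 91 where 1.2% of all genes tested were called higher. Rab15 and Rab43 were called lower, again 2 of 91, where 0.785% of all genes were called lower. The estimates were split between 46 positive and 45 negative values. Their median log2 fold change was 0.0041, beside 0.011 over all genes, and 67 of 91 (73.6%) lay within 0.5 of 0, beside 69.9% of all genes. An unadjusted p under 0.05 was found for 15 of the 91 genes (16.5%), beside 16.7% of all genes. The levels of the diets did not overlap for 5 members that were higher in CR (all genes, 4.58%) and 6 that were lower (all genes, 5.2%). The shares by unadjusted p and by overlap are near those of all genes, while the called shares, 2.2% in each direction, rest on 2 genes each.

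**Figure D1:**
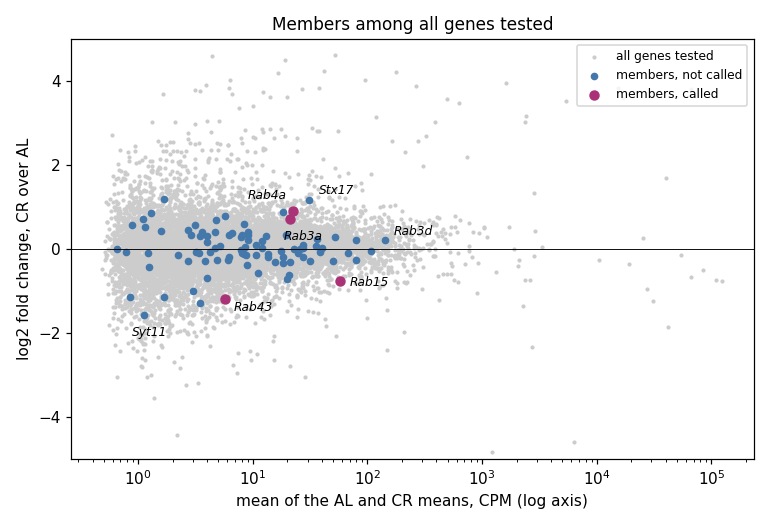
Log2 fold change of CR over AL (vertical axis) against the mean of the AL and CR mean levels in CPM (horizontal log axis), for all 11211 genes tested (grey), members not called (blue) and members called (purple). The 4 called members are Rab4a and Rab3a above 0 and Rab15 and Rab43 below 0, and 13 grey genes lie beyond the vertical axis.

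Deviations from the diet mean correlated at 0.114 to 0.535 between same-numbered libraries, while a pair with different numbers reached 0.408. The labels do not give such a pairing, which comes from these data. The replicate number was also used as a block. With it, 4 members were called higher and 4 lower, where 3.46% and 2.78% of all genes were called. The block added Stx17 and Rab26os to the genes higher in CR, and Rab27b and Rab6b to those lower.

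Rab3a, which binds secretory granules and regulates their docking and release, was higher in CR. The AL libraries had 16.1, 14.8, 15.8 and 16.7 CPM and the CR libraries 29.0, 25.0, 24.2 and 26.2 CPM in replicates 1 to 4. The lowest CR library was above the highest AL library by more than the range within AL. The log2 fold change was 0.72 ± 0.15 (SE, n = 4 per diet), a 1.64-fold higher level, and edgeR's adjusted p was 0.0364. Rab3a lies on chr8:70754679-70758677 (plus strand, GRCm38), where an exon of Mpv17l2 on the opposite strand overlaps it.

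Rab4a, which returns endocytosed cargo from early endosomes rapidly to the cell surface, had the smallest p among the members. It measured 15.3, 15.9, 17.2 and 14.7 CPM in AL and 31.3, 36.4, 28.0 and 21.7 CPM in CR. No CR library reached down to the AL range, and CR replicate 4 was the nearest to it. The log2 fold change was 0.90 ± 0.19, 1.86-fold, with an adjusted p of 0.0335 in edgeR's test. Rab4a lies on chr8:123805985-123835287 (plus strand), with no overlapping exon of another gene.

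Rab15, linked to early and recycling endosomes, was lower in CR. Its AL levels were 81.6, 75, 58.1 and 77.8 CPM and its CR levels 34.5, 48.6, 43.3 and 44.6 CPM. The groups did not overlap, with AL replicate 3 and CR replicate 2 nearest to each other. The log2 fold change was -0.77 ± 0.17, a level 1.71-fold lower in CR, with an adjusted p of 0.0452 in edgeR's test. It lies on chr12:76797960-76822908 (minus strand).

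Rab43, a Rab of the ER and Golgi, was lower in CR and close to the threshold. It measured 7.24, 8.53, 10.1 and 5.89 CPM in AL and 2.41, 4.32, 3.1 and 4 CPM in CR. Every CR library was below every AL library. The log2 fold change was -1.19 ± 0.28, a level 2.29-fold lower, and the adjusted p in edgeR's test was 0.0498. With TMM factors, with a minimum of 10 counts in every library or with RLE factors over all genes, edgeR gave an adjusted p of 0.0512, 0.0510 and 0.0505, so the call was lost. Rab43 lies on chr6:87788853-87812164 (minus strand), and 98.5% of the 75-base windows in the last 600 bases of its longest transcript also occur in Gm45140. That gene overlaps it on the same strand and has no row in the count table, so reads from either cannot be told apart.

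Leaving out 1 library at a time left Rab3a, Rab4a and Rab15 uncalled in 7 of 8 fits and Rab43 in 6 of 8, while the direction held in each fit. The adjusted p in edgeR's test then ran from 0.0279 to 0.117 for Rab3a, 0.0049 to 0.116 for Rab4a, 0.0279 to 0.122 for Rab15 and 0.0292 to 0.133 for Rab43. The first 3 stayed called only without CR replicate 4, and Rab43 without CR replicate 4 or AL replicate 4. In contrast, the log2 fold change moved little, from 0.67 to 0.76 for Rab3a and from 0.78 to 1.02 for Rab4a. All 4 were also called by DESeq2, by limma voom and with the replicate block, which called 6.28%, 3.54% and 6.24% of all genes in either direction.

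**Figure D2:**
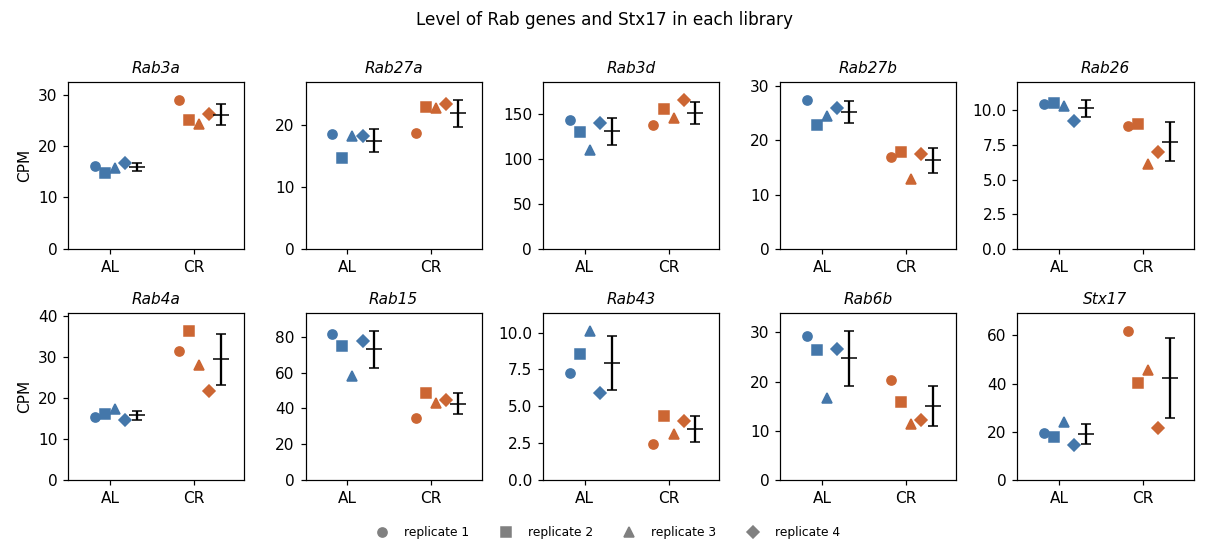
Level in CPM (vertical axis, from 0) of 10 genes in each AL (blue) and CR (orange) library, with the replicate number as the symbol and black bars for the mean ± SD (n = 4). Rab3a, Rab4a, Rab27a, Rab27b, Rab26, Rab15 and Rab43 show no overlap between the diets, while Rab3d, Rab6b and Stx17 do.

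With the parotid score, an average of log2(CPM + 1) over the 8 parotid markers, as a covariate, edgeR called 0 members, and 4 genes higher and 0 lower among all genes. The score was 4.86 to 8.41 in AL and 10.1 to 13.3 in CR, so score and diet did not overlap. In this fit the log2 fold change of Rab4a was 0.35 ± 0.36 in place of 0.90, and that of Stx17 0.27 ± 0.55 in place of 1.16. The estimates of Rab3a (0.75 ± 0.33), Rab15 (-0.77 ± 0.36) and Rab43 (-1.54 ± 0.58) were as large as without the covariate, with wider errors. The 95% interval of Rab4a in this fit, from -0.45 to 1.14, held its estimate without the covariate. Within CR, Rab4a was lowest in replicate 4, which also had the lowest score. The parts of score and diet in these levels cannot be told apart.

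**Figure D3:**
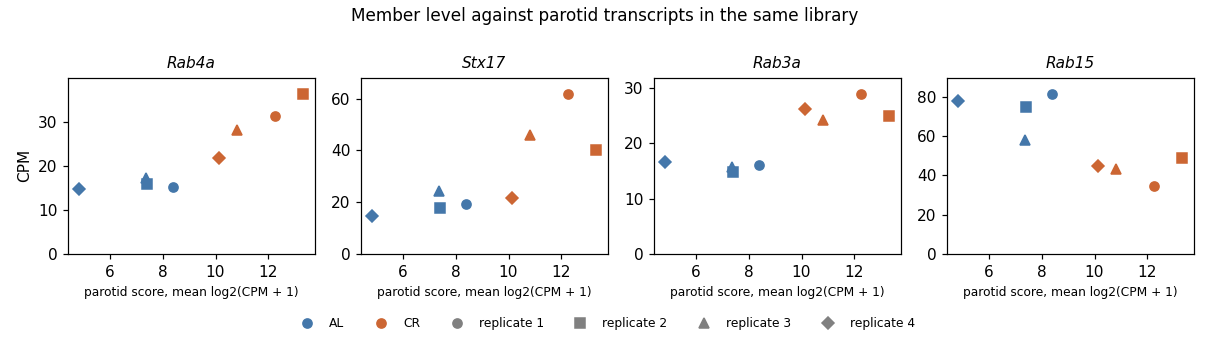
Level in CPM of Rab4a, Stx17, Rab3a and Rab15 (vertical axes) against the parotid score, an average of log2(CPM + 1) over 8 parotid markers (horizontal axes), in the 8 libraries. AL libraries (blue) have scores of 4.86 to 8.41 and CR libraries (orange) of 10.1 to 13.3, and Rab4a is lowest among the CR libraries in replicate 4 with 21.7 CPM.

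Among the Rab GTPases of secretory granules, only Rab3a was called. Of 8 such genes, 5 were tested, and in 4 of these the diets did not overlap, beside 9.79% of all genes, with 2 levels higher in CR and 2 lower, 3 of which did not pass the test. Rab27a and Rab27b, paralogs that tether granules near the membrane, had estimates of opposite sign. Rab27a measured 18.6, 14.7, 18.2 and 18.2 CPM in AL and 18.6, 22.9, 22.7 and 23.3 CPM in CR. The highest AL and the lowest CR library nearly touched, and the log2 fold change of 0.33 ± 0.17 was not called, with an adjusted p of 0.353 in edgeR's test. Rab27b measured 27.4, 22.8, 24.5 and 25.9 CPM in AL and 17, 17.9, 12.9 and 17.4 CPM in CR, with a log2 fold change of -0.62 ± 0.17 and an adjusted p of 0.0823 in edgeR's test. With the replicate block, edgeR gave Rab27b an adjusted p of 0.0372, which passed. The difference between the 2 paralogs was not tested.

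Rab26, which takes part in the maturation of granules in secretory acinar cells, measured 10.5, 10.6, 10.3 and 9.23 CPM in AL and 8.84, 9, 6.13 and 7 CPM in CR. These ranges met closely, the log2 fold change was -0.39 ± 0.20, and edgeR's adjusted p was 0.371. Its exons are shared in part with Traf7 on the same strand. Rab26os, annotated antisense at the Rab26 locus with no exon overlapping those of Rab26, measured 6.93, 19.1, 8.38 and 17 CPM in AL and 11.9, 31.4, 22.6 and 28.9 CPM in CR. Replicates 2 and 4 were the highest in both diets, and its log2 fold change of 0.88 ± 0.36 came with an adjusted p of 0.234 in edgeR's test and 0.0094 with the replicate block. Rab3d, the granule Rab of exocrine acinar cells, measured 110 to 143 CPM in AL and 138 to 166 CPM in CR, a log2 fold change of 0.21 ± 0.17 with a 95% interval from -0.15 to 0.57. Rab3b and Rab3c had counts in 1 library each, 1 and 2 reads, and Rab37, a Rab of mast cell and endocrine granules, was too low to test at 0.146 to 0.797 CPM in AL and 0 to 0.0592 CPM in CR.

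Of the 4 called Rabs, 3 have a promoter window in the RefSeq table, which spans 250 bases before to 50 after a transcript start on GRCm38.p6, and Rab4a has none there. Each of the 3 has further windows that are not shown. Among those, a Rab3a window holds CAGCTG and a Rab43 window holds ATTGG, the reverse of CCAAT. The first window listed of each is shown because these genes carry the diet comparison. It is chr8:70754453-70754752 (plus strand) for Rab3a, chr12:76822475-76822774 (minus strand) for Rab15 and chr6:87812115-87812414 (minus strand) for Rab43. Capitals mark every match to 8 motifs, which were chosen with the results known and searched on both strands, and each sequence is written 5' to 3' in the direction of transcription:
Rab3a: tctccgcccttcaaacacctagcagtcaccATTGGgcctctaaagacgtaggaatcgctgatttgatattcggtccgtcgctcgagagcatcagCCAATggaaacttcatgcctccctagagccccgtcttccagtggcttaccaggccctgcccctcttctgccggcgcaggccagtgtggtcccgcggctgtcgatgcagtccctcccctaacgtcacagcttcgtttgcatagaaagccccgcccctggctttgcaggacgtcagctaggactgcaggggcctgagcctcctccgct
Rab15: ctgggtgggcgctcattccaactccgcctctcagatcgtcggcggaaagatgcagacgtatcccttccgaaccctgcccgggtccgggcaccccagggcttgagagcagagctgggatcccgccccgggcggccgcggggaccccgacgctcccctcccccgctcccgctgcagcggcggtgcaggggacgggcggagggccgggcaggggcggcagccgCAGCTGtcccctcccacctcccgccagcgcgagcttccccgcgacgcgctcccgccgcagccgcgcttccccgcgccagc
Rab43: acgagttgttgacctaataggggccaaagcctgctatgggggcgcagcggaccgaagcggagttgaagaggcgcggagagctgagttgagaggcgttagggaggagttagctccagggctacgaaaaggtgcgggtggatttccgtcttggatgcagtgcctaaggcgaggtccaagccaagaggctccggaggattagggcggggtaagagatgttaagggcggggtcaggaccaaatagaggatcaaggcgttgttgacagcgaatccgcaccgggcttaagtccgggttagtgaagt
The motifs searched, with their share of all windows, follow, and the CLEAR element holds the first of them. Among 32851 windows of the same length, CACGTG occurred in 7.15%, CATATG in 3.91%, TTATGTAA in 0.938%, TGACGTCA in 1.79%, CCAAT in 37.4%, CAGCTG in 16.3%, the CLEAR element in 0.326% and the DR1 repeat in 0.0244%. The table matched 101 members with 130 windows, and of these CACGTG was in 12.3%, CATATG in 2.31%, TTATGTAA in 0.769%, TGACGTCA in 3.08%, CCAAT in 35.4%, CAGCTG in 23.8%, the CLEAR element in 2.31% and the DR1 repeat in 0%. Of the 11 members whose diets did not overlap, 8 have a window, and CACGTG was found in Rab27a and Stx6, CATATG in Rab27a, CCAAT in 4 genes, CAGCTG in 3 genes and the other 4 motifs in 0. These counts by gene take all windows of a gene together, so they cannot be set beside the shares of windows above. A match describes letters in the window only.

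Of the 9 Rabs of the ER and Golgi tested, only Rab43 was called, where 0.785% of all genes were called lower. Estimates were below 0 for 7 of the 9, several of them near 0, beside 5477 of 11211 for all genes. Rab6b, a Golgi Rab, measured 29.3, 26.5, 16.6 and 26.6 CPM in AL and 20.3, 15.9, 11.5 and 12.2 CPM in CR. AL replicate 3 fell inside the CR range, and the log2 fold change of -0.73 ± 0.23 came with an adjusted p of 0.133 in edgeR's test and 0.0217 with the replicate block. Rab1a, needed for transport from the ER to the Golgi, varied far more within diets than between them, from 38.0 to 108 CPM in AL and from 28.2 to 130 CPM in CR. Its log2 fold change was -0.09 ± 0.44. Rab2a and Rab6a, which act between the ER and Golgi and at the Golgi, had log2 fold changes of 0.20 ± 0.16 and -0.08 ± 0.26.

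Replicates 2 and 4, the deeper libraries of both diets, were above replicates 1 and 3 in both diets for 11 of the 91 members (12.1%), beside 9.85% of all genes, a pattern noticed after the values were seen. Rab1a, Rab6a, Rab11a, Rab18 and Rab26os were among them. The opposite order was found for 10 members (11%), beside 7.89% of all genes, with Stx17, Stx3, Vamp2 and Rab14 among them.

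Among the 15 Rabs of the early and recycling endosome tested, Rab4a was called higher and Rab15 lower, where 1.2% and 0.785% of all genes were called. This is 1 gene in each direction. The other 13 of the 15 tested were not called. Rab11a and Rab25, which guide recycling to the apical surface, had log2 fold changes of -0.01 ± 0.23 and 0.00 ± 0.17. The 95% interval of Rab25 ran from -0.37 to 0.38, so a change of over 1.5-fold lay outside it. Rab5a, which controls fusion of early endosomes, was counted at 0.710 to 1.31 CPM in AL and 0.495 to 2.5 CPM in CR, and its interval from -0.32 to 2.02 allowed no statement on direction. The 4 Rabs from the trans-Golgi to the surface all had negative estimates, beside 5477 of 11211 for all genes, and none was called. Rab8a and Rab10 had log2 fold changes of -0.30 ± 0.16 and -0.25 ± 0.15, and Rab8b had the lowest estimate, -0.999 ± 0.45, which turned to 0.10 ± 0.89 with the parotid covariate. Rab7, of late endosomes, had a log2 fold change of -0.29 ± 0.16. Rab32, of lysosome-related organelles, measured 1.62 to 3.01 CPM in AL and 0.212 to 1.49 CPM in CR without overlap. Its log2 fold change of -1.15 ± 0.53 was not called, with an adjusted p of 0.300 in edgeR's test, and was -0.17 ± 1.06 with the parotid covariate. It is named here after its values were seen.

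**Figure D4:**
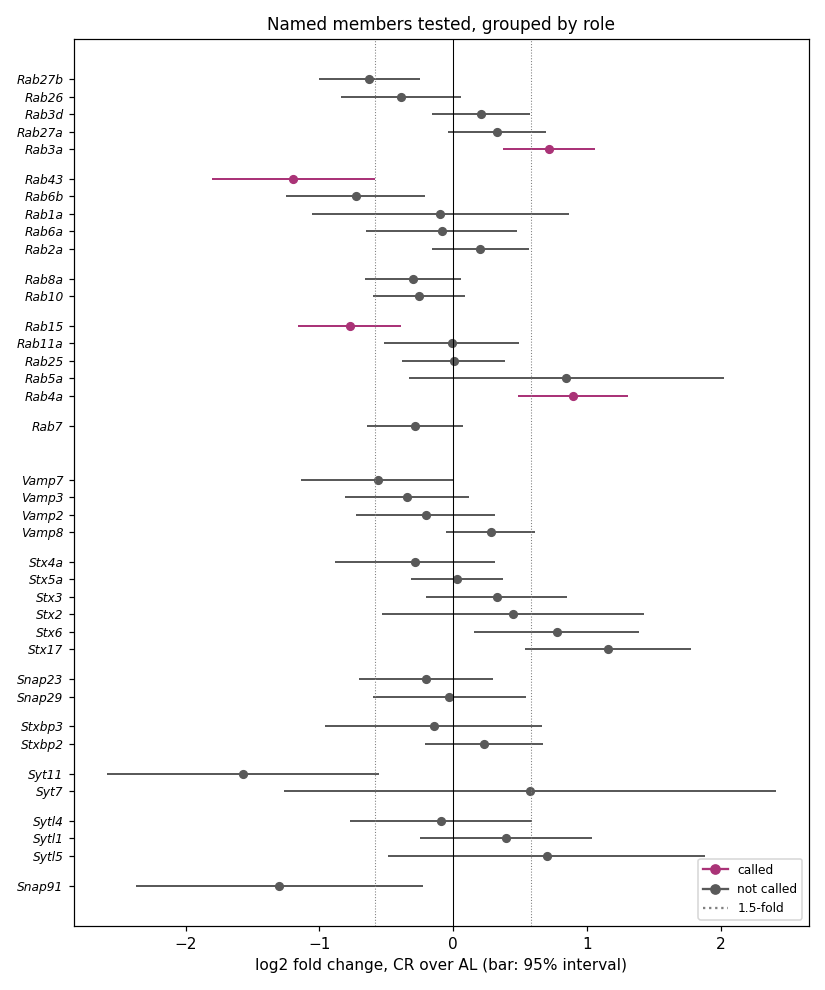
Log2 fold change of CR over AL (horizontal axis) with its 95% interval for 38 named members that were tested, grouped by role from granule Rabs at the top to other rows at the bottom. Called genes are purple, and the dotted lines mark a 1.5-fold change. The intervals of the 4 called genes do not include 0, while most others do.

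None of the 21 SNARE genes tested, of 26, was called by edgeR. At an unadjusted p under 0.05, 3 were counted (14.3%, beside 16.7% of all genes), with positive estimates for Stx17 and Stx6 and a negative one for Vamp7. DESeq2 (6.28% of all genes called), limma voom (3.54%) and edgeR without the filter on low counts (2.61%) each called 1, Stx17. Their median log2 fold change was -0.03, beside 0.011 over all genes. Stx17, the syntaxin that fuses autophagosomes with lysosomes, measured 19.5, 17.7, 24.2 and 14.5 CPM in AL and 62.0, 40.1, 45.8 and 21.7 CPM in CR. Only CR replicate 4 fell inside the AL range, and the other 3 CR libraries were well above it. The log2 fold change was 1.16 ± 0.28, with an adjusted p of 0.0584 in edgeR's test, 0.0049 with the replicate block and 0.0028 without CR replicate 4. In the fits that left out any other library, and with TMM or upper-quartile factors, no SNARE gene was called. Stx17 lies on chr4:48124915-48186507 (plus strand).

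Stx6, a syntaxin of the trans-Golgi network and endosomes, measured 3.16, 5.15, 3.21 and 5.38 CPM in AL and 6.30, 9.06, 5.51 and 8.16 CPM in CR. The diets did not overlap, and the log2 fold change of 0.77 ± 0.28 came with an adjusted p of 0.181 in edgeR's test. Vamp8, the granule SNARE of exocrine acinar cells, measured 52.3, 49.2, 40.4 and 47.7 CPM in AL and 58.0, 55.8, 57.3 and 59.1 CPM in CR. Its groups were apart as well, yet the log2 fold change was small at 0.28 ± 0.15, and edgeR's adjusted p was 0.386. Vamp2, the other granule Vamp, had a log2 fold change of -0.20 ± 0.24, Vamp3 of recycling endosomes -0.34 ± 0.21 and Vamp7 of late endosomes -0.56 ± 0.26.

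Among the target-membrane SNAREs of release, Stx3, the apical syntaxin, had a log2 fold change of 0.33 ± 0.24, Stx4a, the basolateral one, -0.28 ± 0.27 and Stx2 0.45 ± 0.45. Snap23, the widely expressed relative of Snap25, had -0.20 ± 0.23, while Snap25 itself, the neuronal form, had no count in any library. Stx5a of the Golgi was nearly flat at 0.03 ± 0.16, with an interval from -0.31 to 0.37. Stxbp2, the Munc18 protein of epithelia, measured 26.7 to 38.6 CPM in AL and 31.4 to 48.0 CPM in CR, a log2 fold change of 0.23 ± 0.20. Stxbp3 had -0.15 ± 0.37, and none of the 5 Stxbp genes tested had an unadjusted p under 0.05.

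**Figure D5:**
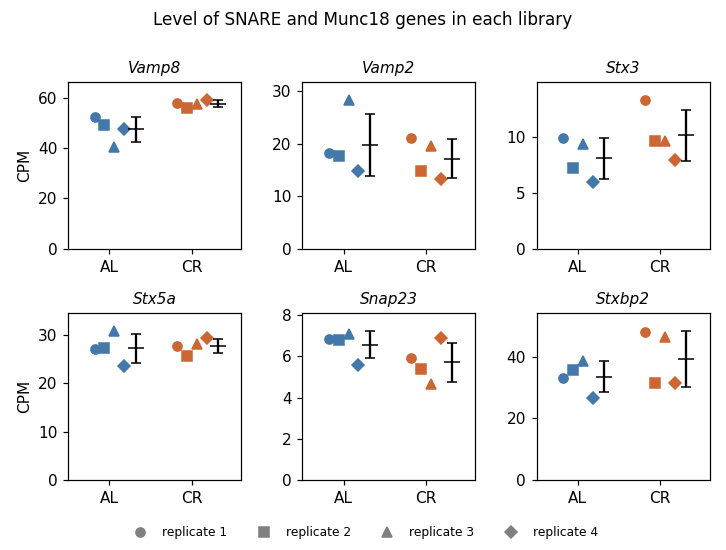
Level in CPM (vertical axis, from 0) of Vamp8, Vamp2, Stx3, Stx5a, Snap23 and Stxbp2 in each AL (blue) and CR (orange) library, with the replicate number as the symbol and black bars for the mean ± SD (n = 4). The Vamp8 libraries are apart, 40.4 to 52.3 CPM in AL and 55.8 to 59.1 CPM in CR, and those of the other 5 genes overlap.

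Few synaptotagmins passed the filter on low counts. Of 17, 7 had no count in any library and 3 passed the filter, Syt3, Syt7 and Syt11. Syt11, which does not bind calcium, had a lower level in each CR library than in any AL library, at 1.31, 1.47, 2.33 and 1.62 CPM in AL and 0.424, 0.533, 0.495 and 0.777 CPM in CR. The log2 fold change of -1.57 ± 0.46 came with an adjusted p of 0.107 in edgeR's test and 0.104 with the replicate block, and DESeq2 called it. Syt7, a sensor with high calcium affinity, ranged from 0.245 to 1.85 CPM in AL and from 0.0555 to 1.41 CPM in CR, so its direction was not resolved. Syt1, the neuronal sensor, was at 0 in the 4 AL libraries and at 0.212, 0.592, 0.310 and 0 CPM in CR. Of 7 nerve markers, Elavl4 and Th were at 0 in every library, and the sum was 0.947 to 3.09 CPM in AL and 2.17 to 3.96 CPM in CR. Synaptotagmin-like proteins, which are Rab27 effectors, were not called in any of 4 tested, with log2 fold changes of 0.70 ± 0.54 for Sytl5, 0.39 ± 0.29 for Sytl1, 0.32 ± 0.26 for Sytl3 and -0.09 ± 0.31 for Sytl4.

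Among the other rows, Snap91, a clathrin assembly protein that shares only its letters with the SNAREs, measured 6.70, 3.37, 2.04 and 7.66 CPM in AL and 0.707, 2.25, 1.98 and 3.05 CPM in CR. These overlapped, and the log2 fold change of -1.30 ± 0.49 came with an adjusted p of 0.196 in edgeR's test. Of 9 binding partners of Rab11 and Rab3, 8 had positive estimates, beside 5734 of 11211 for all genes, and none was called. In edgeR's test 1 of them had an unadjusted p under 0.05 (11.1%, beside 16.7% of all genes).

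Other genes of the same machinery were listed alongside. They are 21 further SNAREs and recycling factors, 9 exocyst subunits, 22 priming factors and granule Rab effectors, and 22 genes of the Rab membrane cycle, 74 in all with 63 tested. EdgeR called none of the 63, with 13 at an unadjusted p under 0.05 (20.6%, beside 16.7% of all genes), of which 11 were negative, beside 908 of 1874 among all genes. DESeq2 called 4, where it called 6.28% of all genes, limma voom 3 (all genes, 3.54%) and the replicate block 4 (all genes, 6.24%), which were Exoc4, Rabep2 and Unc13b lower and Dennd1b higher. The counts for DESeq2 and the block are near the background. Their median log2 fold change was -0.14, beside 0.011 over all genes. Of the 9 exocyst subunits, which tether vesicles at the plasma membrane, 4 had an unadjusted p under 0.05 with a negative estimate, beside 16.7% of all genes in either direction. Exoc6 was lowest, at -1.26 ± 0.35 on the log2 scale, and Exoc4 had -0.87 ± 0.22 with an adjusted p of 0.0695 in edgeR's test and 0.0431 with the replicate block. Unc13b, which primes vesicles for fusion, had -0.92 ± 0.27 and an adjusted p of 0.107, or 0.0094 with the block in edgeR's test.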

How the data were processed

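LG RNA was sequenced with the Lexogen QuantSeq 3' FWD kit. Per the labels and methods, the authors used cutadapt for trimming, STAR for alignment to mm10 and HTSeq for counting, and versions are not given in the sources used here. Raw counts were deposited, with a log2 table equal to log2 of the count over DESeq2's RLE factor plus 1, to within 0.000124, which was not used further. After 5 repeated symbols were dropped, 24552 of 24557 rows remained, and 11211 genes passed edgeR's filterByExpr. RLE factors were then computed on these genes and the diets were tested with edgeR 4.0.16 (R 4.3.3), by quasi-likelihood tests and Benjamini-Hochberg adjustment. The SE is the log2 fold change over the square root of F. The biological coefficient of variation was 34.7%. This order of filter and scaling was chosen after other orders had been run, to follow an earlier analysis of these data, and it bears on the call of Rab43.

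Members and lists were chosen, and roles assigned, with earlier results of these data known. Named genes are those called, the 10 with the smallest p, and a list of genes known in secretion. Of these, 1 is not reported here. Deviations from the diet mean correlated between same-numbered libraries at 0.208, 0.114, 0.298 and 0.535, all over 0.1, so the numbers were taken to pair libraries. The pairing comes from these data, not from the labels, and AL replicate 3 and CR replicate 1 correlated at 0.408. Alternatives were DESeq2 1.42.0, TMM or upper-quartile factors, limma 3.58.1 voom with sample weights, 2 other filters, no fold threshold, the replicate block, the parotid covariate and leaving out each library. RLE factors over all genes, with the filter before or after scaling, were added later. Positions come from GENCODE vM21, promoters from RefSeq. The pipeline was tested on simulated data. A limit on false calls was narrowly missed in the first simulated draw, and it was then replaced by a limit on the mean over several draws, that one included, which was met.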

Additional observations from a re-analysis of the deposited data

Results flagged for a closer look

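Each diet's 4 libraries were examined for a library apart from the other 3, by Dixon's ratio, for the 39 named members tested and for the total counts, 80 groups in all, and 7 were found. Chance flags about 1 in 20 groups. Rab26 was low in AL replicate 4, at 9.23 CPM beside 10.3 to 10.6 in the others. Rab27a was low in AL replicate 2, at 14.7 CPM beside 18.2 to 18.6, and in CR replicate 1, at 18.6 CPM beside 22.7 to 23.3. Rab10 was high in CR replicate 4, at 79.9 CPM beside 69.2 to 70.8. Stx4a was high in AL replicate 3, at 5.47 CPM beside 3.62 to 3.93. Syt7 was high in AL replicate 1, at 1.85 CPM beside 0.245 to 0.457, and low in CR replicate 4, at 0.0555 CPM beside 1.36 to 1.41. None of the 4 called members had such a library.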

How the results depend on the processing

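Member counts are given as genes higher and lower in CR, 2 and 2 as reported. They were 2 and 1 with TMM factors, with at least 10 counts in every library and with RLE factors over all genes, 3 and 4 with DESeq2, 3 and 2 with limma voom and with no filter, 4 and 4 with the replicate block, and 0 and 0 with the parotid covariate. Among all genes, 134 higher and 88 lower became 387 and 317 with DESeq2, 237 and 160 with limma voom, 271 and 165 with no filter, 388 and 312 with the replicate block, and 4 and 0 with the parotid covariate. Of the listed trafficking genes 0 were called as reported, 4 by DESeq2, 3 by limma voom and 4 with the replicate block. The members' median log2 fold change was -0.035 with upper-quartile factors and 0.047 with the parotid covariate. Leaving out 1 library gave 0 to 3 members higher, 0 to 2 lower, 35 to 453 genes higher, 25 to 247 lower, 0 to 4 listed genes and medians from -0.017 to 0.028. The replicate block ended no member's call. Of the 39 named members tested, the following, all uncalled, changed sign on the log2 scale: with upper-quartile factors Rab25 (-0.032), Stx5a (-0.0071), with limma voom Rab25 (-0.047), Sytl4 (0.025), with the replicate block Rab11a (0.014), Rab25 (-0.0084), and with the parotid covariate Rab11a (0.43), Rab1a (1.08), Rab6a (0.67), Stx3 (-0.42), Stx5a (-0.033), Snap29 (0.30), Stxbp2 (-0.029), Stxbp3 (0.29), Syt7 (-1.74). Leaving out 1 library changed the sign of 21 values of named members, all uncalled, whose ranges were Rab25 (-0.081 to 0.094), Snap29 (-0.29 to 0.11), Sytl4 (-0.19 to 0.15), Rab11a (-0.18 to 0.11), Rab6a (-0.37 to 0.088), Vamp2 (-0.33 to 0.016), Rab1a (-0.66 to 0.19), Stx5a (-0.039 to 0.090), Stxbp3 (-0.41 to 0.045). Over all 91 members tested, the sign changed for 6 with upper-quartile factors, 10 with limma voom, 7 with the replicate block, 29 with the parotid covariate and 5 to 13 without 1 library, and for 0 of the 4 called. The causes were not tested. Members that did not pass edgeR's filter on low counts were left untested, and the floor of 3 counts was not used for this.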
